A study of Mus musculus with 6 samples.

Results

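Retnla, Ear2, Mmp12, Prg3, Chil3, Arg1 and Fn1 encode secreted or cytosolic proteins of alternatively activated macrophages and of the monocytes from which macrophages arise, and are 7 of the 32287 genes in the count matrix of CD169-lineage lymph node cells. They were picked by name, after earlier results of these same cells were known, among them a high level of Retnla in macrophage-like cells of 1 unimmunized and 1 immunized mouse. The levels of the 7 genes across cell types are therefore given as a description, and no test between conditions is reported for Retnla.

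The cells came from the lymph nodes of Cd169Cre/+.Tdtomatofl/fl mice. In these mice Cre is driven by the Siglec1 locus, which encodes CD169, and removes a stop before the red fluorescent protein tdTomato, so that a cell and its progeny stay labelled whether or not they still make CD169. All 4 mice carried these alleles; 2 were unimmunized and 2 had been immunized, per the labels with the protein hen egg lysozyme (HEL), and the nodes were taken at day 9. The study's immunization methods describe HEL conjugated to an ovalbumin peptide, in Sigma Adjuvant System under the skin, for recipients of transferred T and B cells, and do not say whether these mice were such recipients. Its methods give both sexes and a minimum age in weeks for its mice as a whole, all on a C57BL/6J background, and no age or sex for each of these 4. CD11b hi Tomato+ cells were sorted, each mouse carrying 1 hashtag antibody, and were pooled and split over 2 droplet captures with 3' RNA, surface antibody and hashtag libraries. The mice are called unimmunized 1 and 2 and immunized 1 and 2 after their hashtags, and these numbers carry no order.

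Of 18662 barcodes, 12139 cells were kept, with 2828 and 537 cells from the unimmunized mice and 4052 and 4722 from the immunized mice. Their median depth was 5877 and 6280 unique molecular identifiers (UMIs, each a captured RNA molecule) per cell against 9674 and 12728, so that the immunized mice were read more deeply. There were 621 barcode sequences present in both captures, and they were left out because the hashtag and antibody matrices do not say which capture they belong to. Cells were placed into 16 gated types by lists of marker genes, the largest being classical monocyte-like (132, 68, 1062 and 1674 cells, in the order unimmunized 1, unimmunized 2, immunized 1, immunized 2) and C1q-high macrophage-like (38, 20, 372 and 1284 cells). The sort let through 1354 T cell-like, 393 NK cell-like and 308 B cell-like cells. The tingible body macrophage-like (TBM-like) gate had only 4 cells in each unimmunized mouse and 38 and 113 in the immunized mice, and the inflammatory macrophage-like gate was made of immunized 2 in 187 of 188 cells. A further gate, named here by its gene as the Il22ra2+ cells, was given no cell type, because its genes Il22ra2, Cd200, Pla2g2d, 1300017J02Rik and 2610528A11Rik were chosen after these data were seen. Gates were applied in a fixed order, and a cell took the first gate that it passed. The lymphoid, neutrophil-like and medullary sinus macrophage-like gates came before the Il22ra2+ gate, so a cell that also passed an earlier gate was not counted as Il22ra2+.

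Alternative activation is the state that macrophages take on when interleukin-4 or interleukin-13 signal through the transcription factor STAT6, and it is known in helminth infection, allergy and tissue repair. Retnla (resistin-like alpha), Chil3 (the chitinase-like protein Ym1) and Arg1 (arginase 1, which splits arginine into ornithine and urea) are its classical mouse markers. Ear2 is a ribonuclease named after eosinophils, Prg3 is the eosinophil granule protein major basic protein 2, Mmp12 is macrophage elastase, and Fn1 is fibronectin, the matrix glycoprotein that monocytes also make. Chil3 is known in bone marrow monocytes and neutrophil precursors as well, so that its RNA alone does not mark alternative activation.

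The 7 genes lie on 7 chromosomes. In GRCm38 (GENCODE vM21), Retnla is at chr16:48842551-48844461 on the plus strand, Chil3 at chr3:106147554-106167564 on the minus strand and Arg1 at chr10:24915221-24927484 on the minus strand. Ear2 is at chr14:44102654-44103534 on the plus strand, Prg3 at chr2:84988215-84993886 on the plus strand, Mmp12 at chr9:7344381-7369499 on the plus strand and Fn1 at chr1:71585520-71653200 on the minus strand. The promoter table from RefSeq (GRCm38.p6) matched 5 of the 7 genes with 6 start sites, and does not list Arg1 and Fn1. The 250 bases before the RefSeq start are shown for the 4 genes whose window held a match to 1 of the searched motifs. STAT6, C/EBP and PU.1 are the factors usually named for this gene set. Capitals mark the matches, and each sequence runs 5′ to 3′ along its gene.
Retnla: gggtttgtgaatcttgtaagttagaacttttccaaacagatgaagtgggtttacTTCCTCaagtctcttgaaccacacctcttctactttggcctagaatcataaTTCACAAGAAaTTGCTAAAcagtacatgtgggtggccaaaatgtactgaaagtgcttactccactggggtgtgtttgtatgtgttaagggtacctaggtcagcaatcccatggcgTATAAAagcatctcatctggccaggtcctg
Chil3: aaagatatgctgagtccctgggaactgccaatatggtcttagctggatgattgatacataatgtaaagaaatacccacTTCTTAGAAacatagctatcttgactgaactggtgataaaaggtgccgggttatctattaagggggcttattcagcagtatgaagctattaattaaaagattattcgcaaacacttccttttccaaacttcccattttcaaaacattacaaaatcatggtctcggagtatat
Ear2: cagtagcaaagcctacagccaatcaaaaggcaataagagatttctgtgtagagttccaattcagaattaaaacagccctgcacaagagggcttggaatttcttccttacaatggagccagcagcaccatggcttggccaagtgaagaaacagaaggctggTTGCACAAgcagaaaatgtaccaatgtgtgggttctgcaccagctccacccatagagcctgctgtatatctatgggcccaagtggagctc
Mmp12: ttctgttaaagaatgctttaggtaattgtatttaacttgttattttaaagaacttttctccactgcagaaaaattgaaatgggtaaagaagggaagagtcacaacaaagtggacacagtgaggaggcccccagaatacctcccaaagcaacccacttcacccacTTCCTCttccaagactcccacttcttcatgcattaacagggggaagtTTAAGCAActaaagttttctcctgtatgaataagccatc

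These windows are chr16:48842359-48842608 for Retnla, chr3:106167565-106167814 (minus strand) for Chil3, chr14:44102404-44102653 for Ear2 and chr9:7344147-7344396 for Mmp12. For Retnla and Mmp12 the window runs past the GENCODE gene start given above (48842551 and 7344381). Positions below are counted from the RefSeq start. Both strands were searched for the STAT6 spacing TTCNNNNGAA, the shorter STAT spacing TTCNNNGAA, the C/EBP-type TTGCNNAA, the ETS-type GAGGAA bound by PU.1-like factors, and TATAAA. Retnla held the STAT6 spacing at bases -145 to -136 and a C/EBP-type match directly after it at -134 to -127, together with an ETS-type match and a TATA box at -30 to -25. Chil3 held the shorter STAT spacing at -172 to -164, Ear2 a C/EBP-type match at -90 to -83, and Mmp12 a C/EBP-type match at -39 to -32 and an ETS-type match. No match was found in the window of Prg3 or of the other Mmp12 start. Over 32851 promoter windows of this length, 5.85% held the STAT6 spacing, 7.02% the shorter one, 9.56% the C/EBP type, 23.3% the ETS type and 12.4% TATAAA, so that each match by itself is common. A match describes the letters in the window and nothing more.

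The 7 genes differed most in how their RNA was shared among cells. Retnla had 1260 UMIs in all, but in only 40 of 12139 cells (0.330%, exact 95% interval 0.236% to 0.448%), and its 10 highest cells held 96.6% of them. Arg1 had 150 UMIs in 28 cells, of which the 10 highest held 81.3%. The other 5 genes were spread widely: Fn1 had 1926 UMIs in 622 cells, Mmp12 1437 in 444, Ear2 4427 in 1137, Chil3 14502 in 1852 and Prg3 6039 in 1879. In these the 10 highest cells held between 3.26% (Prg3) and 18.4% (Mmp12) of the UMIs. Intervals on shares of cells are Clopper-Pearson intervals and cover counting error only.

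**Figure D1:**
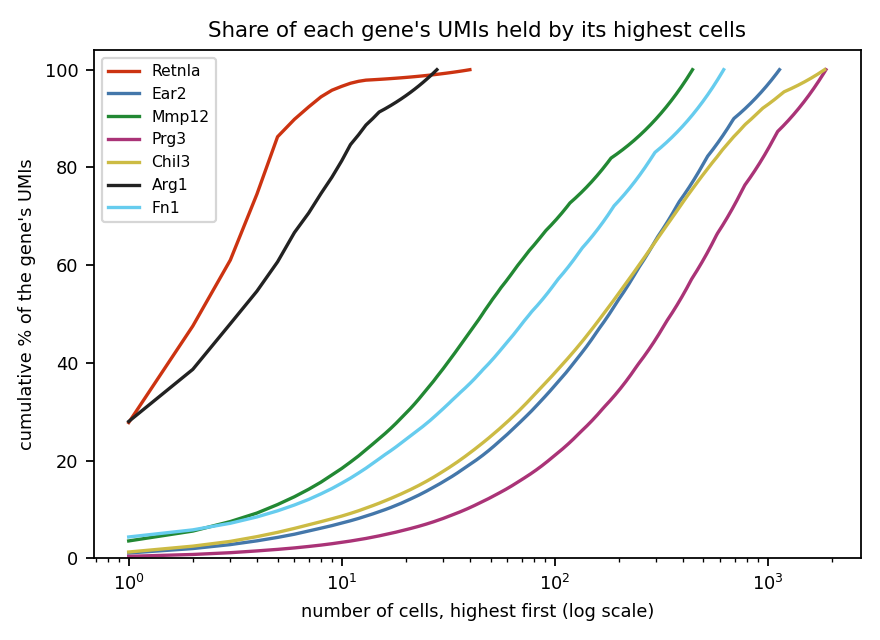
Cumulative percentage of each gene's UMIs (y axis) held by its highest cells, against the number of cells counted from the highest down (x axis, log scale). The curves of Retnla and Arg1 are near their top within 10 cells (96.6% and 81.3%), whereas that of Prg3 has reached only 3.26% there.

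Retnla RNA was a matter of 10 cells. They held 1217 of its 1260 UMIs, with 350, 249, 170, 148, 45, 26, 17 and 10 UMIs in 8 cells of unimmunized 1 and 170 and 32 UMIs in 2 cells of immunized 1. Unimmunized 2 had 1 Retnla UMI in all and immunized 2 had 8. The next cells below the line of 10 UMIs, which was set by hand, had 8, 5 and 3. Mice of the same condition therefore lay far apart: summed over all cells, Retnla stood at 54.9 and 0.262 counts per 1000000 UMIs (CPM) in the unimmunized mice and at 5.41 and 0.129 CPM in the immunized mice. The order of these levels follows which mice held the high cells, and the conditions overlapped.

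The 10 cells did not fall into a single gate, each being placed in the first gate that it passed. In unimmunized 1 they were found in the C1q-high (350 UMIs), classical monocyte-like (249), medullary sinus macrophage-like (170), monocyte-derived dendritic cell-like (moDC-like; 148 and 17) and migratory dendritic cell-like (45 and 26) gates, and the cell with 10 UMIs was ungated. In immunized 1 the cell with 170 UMIs was ungated and that with 32 was C1q-high. A level per gate is thus set by which gate 1 cell fell into. The C1q-high level of 1425 CPM in unimmunized 1 came from 1 of 38 cells and was 0 without it, and the classical monocyte-like level of 214 CPM was 0 without its highest cell. Leaving out the highest cell took the moDC-like level from 419 to 44.6 CPM, the medullary sinus macrophage-like level from 124 to 1.48 CPM and the migratory dendritic cell-like level from 103 to 46.5 CPM. No Retnla UMI was found in 599 nonclassical monocyte-like cells, for which a limit of 3 counts leaves up to 0.501% of such cells with a UMI. None was found in the type 1 dendritic cell-like, neutrophil-like, interferon-high or TBM-like gates either, with limits of 2.27%, 6.25%, 1.01% and 1.89%. All of these limits are above the share of 0.330% over all cells, so these absences say little. Single UMIs stood in 6 cells of the T, NK and B cell-like gates, where the gene is not expected, so that cells with 1 UMI were not read as expressing it.

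Although spread over gates, the 10 cells shared other RNAs, and 7 of them lay in the same cluster of 433 cells in a clustering made without the 7 genes. Of the marker lists, that of monocyte-derived dendritic cells was the highest in this cluster. Retnla and Fcrls were among the 10 leading genes of the moDC-like gate by fold over other cells. However, all 165 Retnla UMIs of that gate lay in 2 of these same 10 cells, which also held 11 and 10 Fcrls UMIs. The leading genes of the gate are therefore no separate link to it. Ear2 was found in 9 of the 10, against 9.37% of all cells, and stood at 682 CPM in them. In unimmunized 1 it stood at 544 CPM in the moDC-like gate, which held 2 of the 10, and at 534 CPM in nonclassical monocyte-like cells. Shares of cells there were 45.7% and 73.5%. Median depth was 12770 UMIs in the 10 cells, against 5877 and 9674 in all cells of unimmunized 1 and immunized 1. The part of depth in the shares was not tested. Fn1 was found in 9 of the 10 (1263 CPM), against 5.12% of all cells. Neither Chil3 nor Arg1, the other classical markers of alternative activation, had a UMI in any of them. Chil3 was found in 6.75% of all cells of unimmunized 1 and 26.0% of immunized 1, and Arg1 in 0.177% and 0.0247%. In 10 cells, most of them of unimmunized 1, an absence at such shares says little. Mmp12 had 1 UMI in each of 2 of the 10 cells and Prg3 had 2 UMIs in 1 of them. Fcrls, an Fc receptor-like gene known from microglia and other tissue macrophages, was present in 9 of the 10 and in 0.420% of all cells (703 against 1.84 CPM). Lpl, which encodes lipoprotein lipase, stood at 1227 against 61.4 CPM, the secreted matrix protein Ecm1 at 309 against 7.15 CPM, and the mannose receptor Mrc1 at 201 against 14.5 CPM. The lectins Mgl2 and Clec10a were each found in 7 of the 10, against 14.6% and 24.85% of all cells (158 against 85.1 and 172 against 72.2 CPM). The monocyte chemokine receptor Ccr2 was found in 8 of the 10, near its share of 70.7% over all cells (933 against 674 CPM). Other genes of alternative activation went both ways in the 10 cells. Msr1 (14.35 against 116.5 CPM over all cells), Il13ra1 (21.5 against 82.1), Stat6 (7.18 against 45.05) and Il4ra (21.5 against 44.1) were lower. F13a1 (323 against 33.6 CPM), Socs2 (93.3 against 31.5) and Irf4 (50.2 against 5.04) were higher. No UMI of Flt3, Mertk, Siglecf, Epx, Prg2, Cd3e or Cd79a was found in the 10 cells. Cd209a, a marker of the moDC-like gate, was found in 3 of the 10 (93.3 against 19.2 CPM). These counts describe cells picked by Retnla in the same libraries, and no test was made on them.

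**Figure D2:**
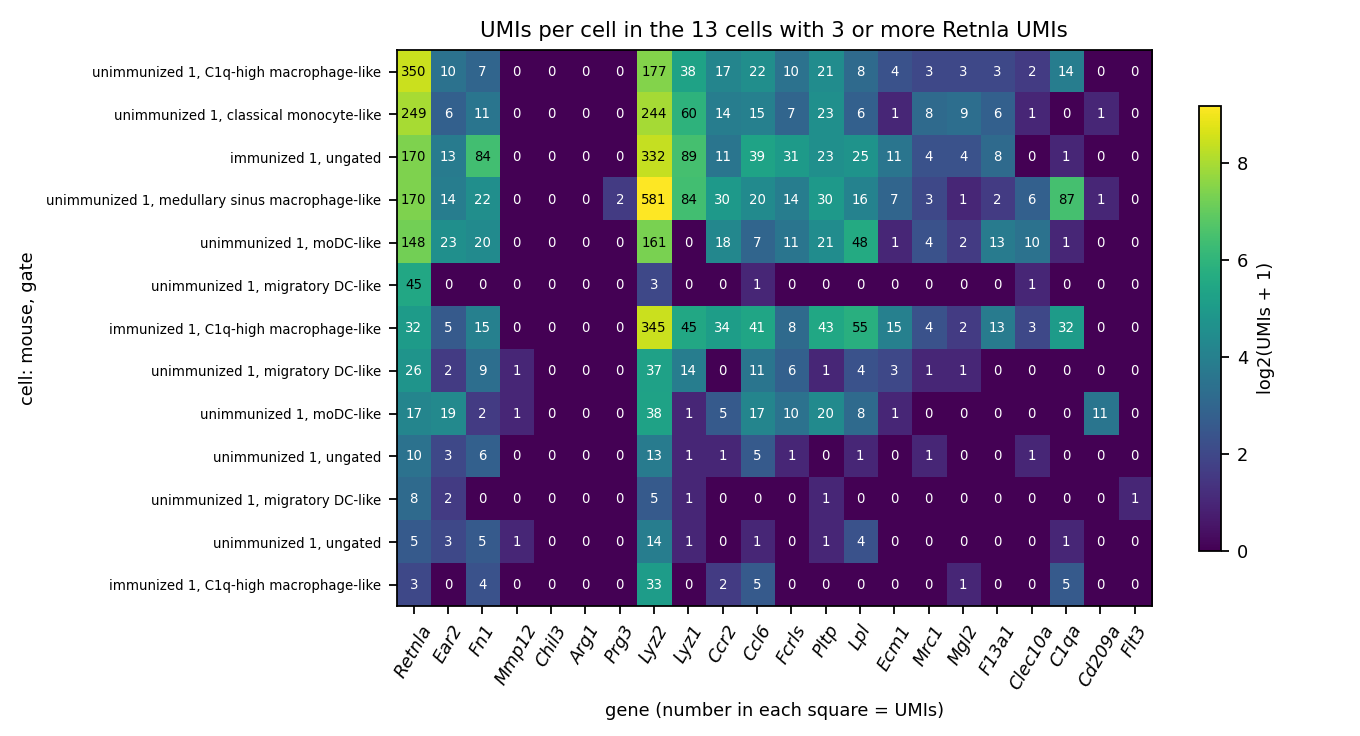
UMIs of 22 genes (columns) in each of the 13 cells with 3 or more Retnla UMIs (rows, labelled by mouse and gate); colour is log2(UMIs + 1) and the count is printed in each field. The Ear2, Fn1 and Fcrls columns are filled in most rows, whereas the Chil3 and Arg1 columns are 0 throughout. The Lyz2 column is filled too, but Lyz2 was found in 99.5% of all cells.

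Surface antibodies are a separate readout of the same cells. Each of the 10 cells was ranked among the kept cells of its own mouse and capture. The F4/80 antibody signal lay between percentiles 58.4 and 99.0 and that of CD11c between percentiles 69.6 and 96.4, whereas CD169 lay between percentiles 5.08 and 51.6. All 10 were thus above the median of their own mouse and capture for F4/80 and CD11c. That median is over all kept cells, of which 914, 194 and 86 of 2828 in unimmunized 1 were T, NK and B cell-like. As centred log ratios, T cell-like cells without a Prg3 UMI stood there at -0.98 (F4/80), 0.17 (CD11c) and 1.32 (CD169). MoDC-like cells without an Ear2 UMI stood there at -0.19, 1.53 and -0.03. Ranks among myeloid cells alone were not computed. With regard to doublets, the hashtag of the assigned mouse made up 94.8% or more of hashtag counts in 9 of the 10, and 82.4% in the medullary sinus macrophage-like cell, which had 37788 UMIs. That cell and the migratory dendritic cell-like cell with 26 UMIs were in the top 10% of a simulated doublet score in their capture (percentiles 92.7 and 96.6 within mouse and capture). The part of doublets in the spread over gates was not tested.

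As a mean over mice, Chil3 was highest in the neutrophil-like, monocyte-like and interferon-high gates, and its level differed widely between mice of the same condition. In classical monocyte-like cells it stood at 85.8 and 31.3 CPM in the unimmunized mice and at 533 and 36.7 CPM in the immunized mice. In nonclassical monocyte-like cells, gated by genes of patrolling monocytes such as Ace and Treml4, it stood at 305 and 697 CPM against 775 and 63.8 CPM. Immunized 1 was the highest mouse in both gates, and immunized 2 lay next to or below the unimmunized mice, so that the conditions overlapped. The nonclassical gate is not one of patrolling monocytes alone, since many of its cells had Ccr2, a marker of the classical gate. Ccr2 was found in 71.1% of its cells with and 57.8% of those without a Chil3 UMI in unimmunized 1, and in 91.2% and 85.4% in immunized 2. Immunized 1 held 11755 of all 14502 Chil3 UMIs. In the interferon-high gate the level was 117 CPM in unimmunized 1 against 997 and 70.9 CPM, and in the neutrophil-like gate, where only unimmunized 1 and immunized 1 had 10 or more cells, it was 227 against 1633 CPM. The 4 gates with the highest mean level, neutrophil-like, nonclassical, interferon-high and classical, overlapped each with the next.

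The gap between the immunized mice was wider for Chil3 than for any other well-measured gene in 3 gates. It was 14.5-fold in the classical gate, and of 2526 genes with a mean of 50 CPM or more in these mice none had a larger ratio in either direction. In the nonclassical gate it was 12.2-fold (none of 2602 genes) and in the Il22ra2+ cells 11.1-fold (none of 2070). The 9 neutrophil marker genes, summed, stood at 102, 81.4, 123 and 115 CPM in the classical gate and at 128, 132, 132 and 119 CPM in the nonclassical gate. Over all cells they stood at 558.5, 94.6, 774 and 244 CPM, higher in immunized 1 than in immunized 2. The part of neutrophil RNA in the gap was not tested. Chil3 UMIs were also found where the gene is not expected, in the T cell-like gate at 38.1, 6.40, 60.1 and 12.1 CPM with shares of 3.72%, 2.54%, 6.36% and 5.88% of cells. These are below the shares in the classical gate (17.4%, 10.3%, 50.9% and 18.3%), although median depth also differed, at 5753 to 7108 UMIs in the T cell-like and 8614 to 12310 UMIs in the classical gate. With each cell thinned to 1000 UMIs the classical shares were 6.06%, 0%, 23.5% and 3.64%. In unimmunized 2 and immunized 2 these were below the unthinned T cell-like shares. Thinned T cell-like shares are not given here, so the 2 gates are not compared at equal depth. Thinning left out shallower cells, 10 of unimmunized 1 and 1 of immunized 2, none of them monocyte-like.

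**Figure D3:**
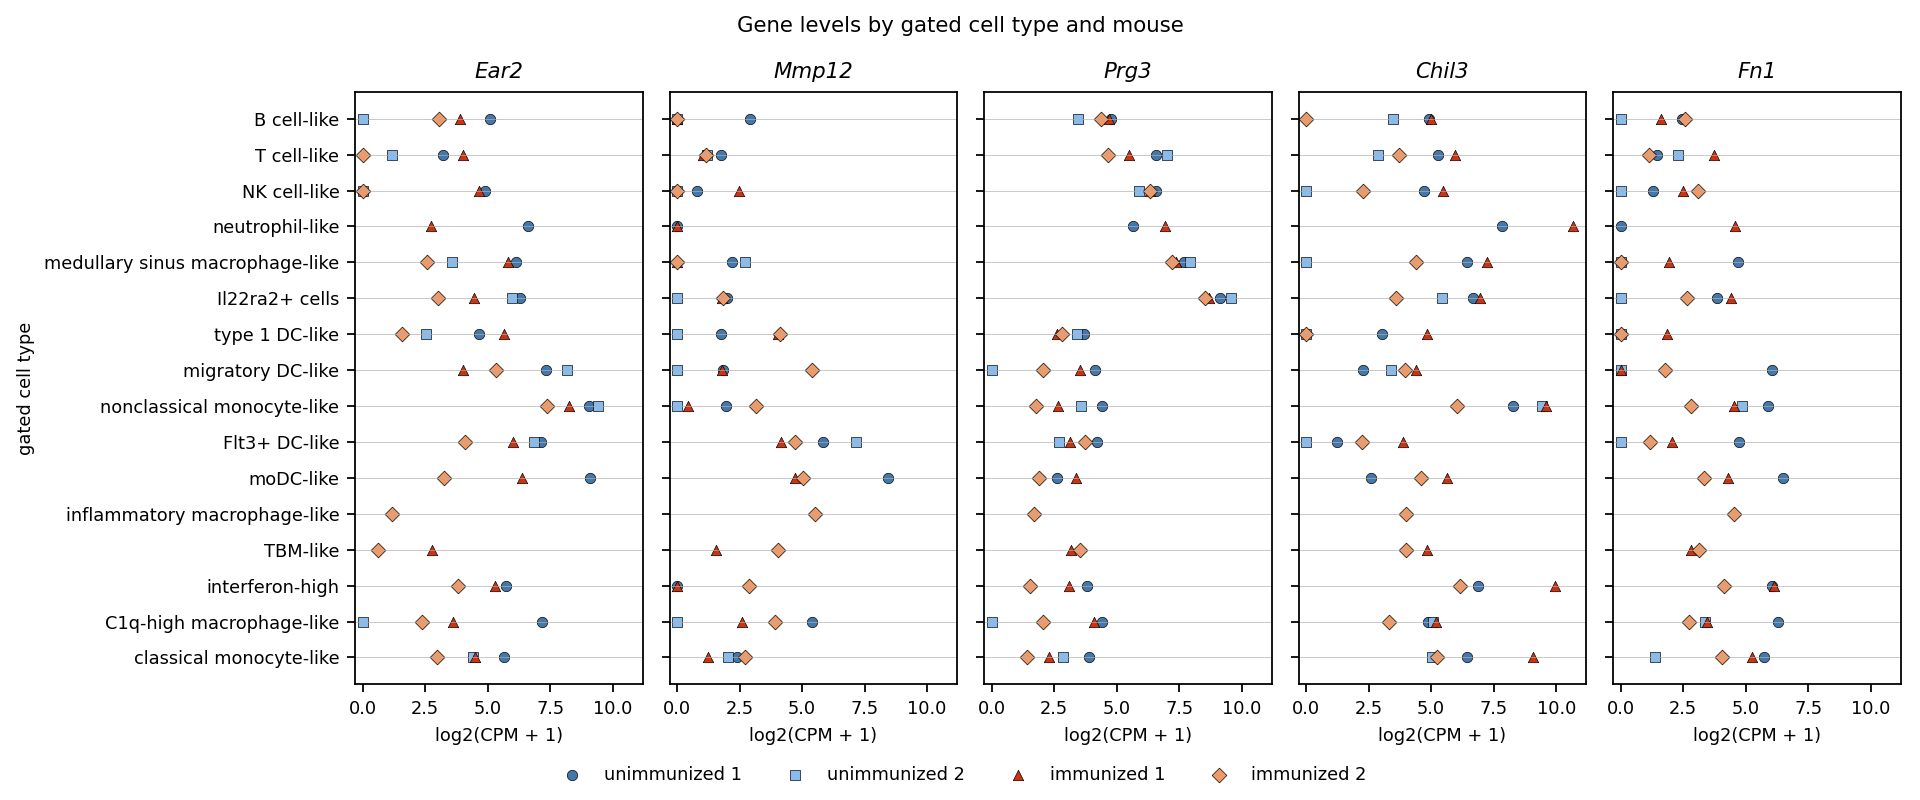
Level of Ear2, Mmp12, Prg3, Chil3 and Fn1 (x axis, log2(CPM + 1) of summed UMIs) in the 16 gated types (rows), with a marker for each mouse that had 10 or more cells in the gate. Ear2 has its highest mean over mice in nonclassical monocyte-like cells (167 to 675 CPM, with the moDC-like gate at 544 against 534 CPM in unimmunized 1) and Prg3 in Il22ra2+ cells (365 to 755 CPM), and for Chil3 the marker of immunized 1 stands apart from that of immunized 2 in the monocyte-like rows.

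The cells with Chil3 UMIs within a gate differed from those without in surface Ly-6C, the protein that separates classical from nonclassical monocytes. Within nonclassical monocyte-like cells the antibody signal, as a centred log ratio over the 6 antibodies, was 0.83 higher for Ly-6C (SD 0.25, higher in 4 of 4 mice) and 0.40 lower for CD11c in cells with a Chil3 UMI (-0.40, SD 0.25, lower in 4 of 4). Within classical monocyte-like cells the differences were 0.64 (SD 0.22, higher in 4 of 4) for Ly-6C and -0.54 (SD 0.23, lower in 4 of 4) for CD11c. The exact sign-flip p was 0.125 for each, the smallest that 4 mice allow, and 0.355 after Benjamini-Hochberg adjustment over the 54 differences computed for 9 pairs of gene and gate, so none passed. Cells with Chil3 UMIs in the nonclassical gate also carried more Fn1, at 150.0 against 6.01, 80.2 against 0, 31.2 against 5.71 and 20.4 against 0 CPM in the 4 mice. Of the Fn1-positive cells there, 12 of 15, 2 of 2, 21 of 26 and 4 of 4 had a Chil3 UMI. If both genes were spread independently, 4.59, 0.56, 16.85 and 1.11 would be so, hence the excess in immunized 1 was small.

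Arg1 was nearly absent, and most of its UMIs came from immunized 2. Its UMIs numbered 6, 0, 1 and 143 in the 4 mice, in 5, 0, 1 and 22 cells. In unimmunized 2, with 0 of 537 cells, the same limit of 3 counts leaves up to 0.559% of cells with an Arg1 UMI. All 13 cells with 3 or more Arg1 UMIs were from immunized 2, with 42 UMIs in the highest and 16, 14 and 10 in the next. They fell into the C1q-high (5 cells), inflammatory macrophage-like (4), TBM-like (3) and Il22ra2+ (1) gates. The cell with 42 Arg1 UMIs was inflammatory macrophage-like and held 23 Mmp12 UMIs and 3 of Nos2, the inducible nitric oxide synthase that competes with arginase for arginine. No cell of the 13 had a Retnla UMI and Ear2 was found in 1 of them, against 0.169% and 5.02% of all cells of immunized 2. At such a share of Retnla, its absence from 13 cells says little. The inflammatory gate held Arg1 at 20.2 CPM in 5 of 187 cells, the TBM-like gate of immunized 2 at 12.7 CPM and its C1q-high gate at 2.79 CPM in 9 of 1284 cells. With so few cells and a single mouse, no difference by condition was detectable.

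As a mean over mice, Ear2 was highest in nonclassical monocyte-like cells, although in unimmunized 1 the moDC-like level was slightly above it. It stood there at 534 and 675 CPM in the unimmunized mice and at 302.4 and 167 CPM in the immunized mice, with UMIs in 73.5% (65.6% to 80.4%) and 80.0% (59.3% to 93.2%) of cells against 63.2% (57.5% to 68.6%) and 51.2% (42.1% to 60.3%). The immunized mice were thus both lower, and their cells were deeper, with median depths of 6578 and 6964 against 9164 and 11300 UMIs. Thinned to 1000 UMIs per cell, the shares were 37.4% and 56.0% against 24.0% and 12.2%. An exact permutation test of 2 against 2 mice gave p = 0.333 for the unthinned shares, the smallest that the design allows. In the T cell-like gate, which should lack Ear2, the share was between 0% and 1.82% of cells. Ear2 was not among the gate's markers but was among its 10 leading genes by fold over other cells. The gate's marker Ace was lower in the immunized mice too. In cells with a Chil3 UMI it stood at 410 and 369 against 285 and 175 CPM. In those without it stood at 480 and 434 against 250 and 167 CPM. The part of the gate's make-up in the Ear2 difference was not tested.

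Ear2 was next highest in gates of dendritic cells, and each overlapped with its neighbour in that order. The moDC-like level was 544 CPM in unimmunized 1 against 82.6 and 8.65 CPM in the immunized mice, while unimmunized 2 had too few such cells (4). The migratory dendritic cell-like level was 162 and 289 CPM against 15.1 and 39.0 CPM, and the Flt3+ dendritic cell-like level was 140 and 116 CPM against 64.3 and 16.2 CPM. In the Il22ra2+ cells it was 76.6 and 62.7 CPM against 21.1 and 7.16 CPM. Both immunized mice were below both unimmunized mice in these last 3 gates and in the nonclassical gate, hence in 4 of 11 types measured in every mouse, and above in none. The same held for 21% of all 11332 tested genes in the nonclassical gate, 21% in the Flt3+, 37.4% in the Il22ra2+ and 15.7% in the migratory gate, so that a lack of overlap is itself common here. In the B cell-like, NK cell-like and C1q-high gates, where Ear2 overlapped between conditions, the share of genes below without overlap was 19.6%, 19.7% and 18.2%. C1q-high cells had 143 and 0 CPM against 11.1 and 4.24 CPM, and the TBM-like gate held 5.93 CPM in immunized 1 and 0.551 CPM in immunized 2.

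The quasi-likelihood test of edgeR on summed counts did not call Ear2. The log2 fold change of immunized over unimmunized mice was -1.19 (SE 0.72, adjusted p = 0.743) in nonclassical monocyte-like cells, -1.86 (SE 0.90, adjusted p = 0.369) in Il22ra2+ cells and -1.42 (SE 0.88, adjusted p = 0.687) in Flt3+ dendritic cell-like cells. These calls turned on immunized 1. Without it the log2 fold changes were -1.69, -3.07 and -2.97, with edgeR adjusted p of 0.0352, 0.0190 and 0.0142, on the assumption that immunized 2 varies like the other groups. Without immunized 1 between 109 and 180 genes were called in each gate, against 0 to 7 with all mice.

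Within the nonclassical gate, cells with an Ear2 UMI had higher levels in CPM of Ace and Treml4, which are among the genes that define the gate. Ace, which encodes angiotensin-converting enzyme, stood at 531 against 257, 522 against 162, 320 against 201 and 271 against 90.9 CPM in the 4 mice. Treml4 stood at 278 against 173, 324 against 216, 266 against 181 and 293 against 144 CPM, and Ccr2 was lower, at 401 against 787, 490.1 against 575, 726 against 980 and 465 against 646 CPM. In CPM all 4 mice had the same direction for each of these genes. The shares of cells with an Ace or Ccr2 UMI had these directions in all 4 mice too, but that of Treml4 did not. It was lower in Ear2-positive cells of both unimmunized mice (75.93% against 82.05% in unimmunized 1) and higher in both immunized mice (92.06% against 86.67% in immunized 2). Ear2-positive cells had a lower median depth in all 4 mice, for example 6063 against 7577 UMIs in unimmunized 1. The part of depth was not tested. The Ly-6C antibody was lower in Ear2-positive cells in 3 of 4 mice (-0.37, SD 0.33, exact sign-flip p = 0.25) and CD11c showed a mean difference of 0.02 (SD 0.23). Ear2 has near-identical relatives whose reads could be shared among them. Their counts were low, with 1 UMI of Ear1, 19 of Ear6, 16 of Rnase2a and 0 of Ear10 and Ear14 over all cells.

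**Figure D4:**
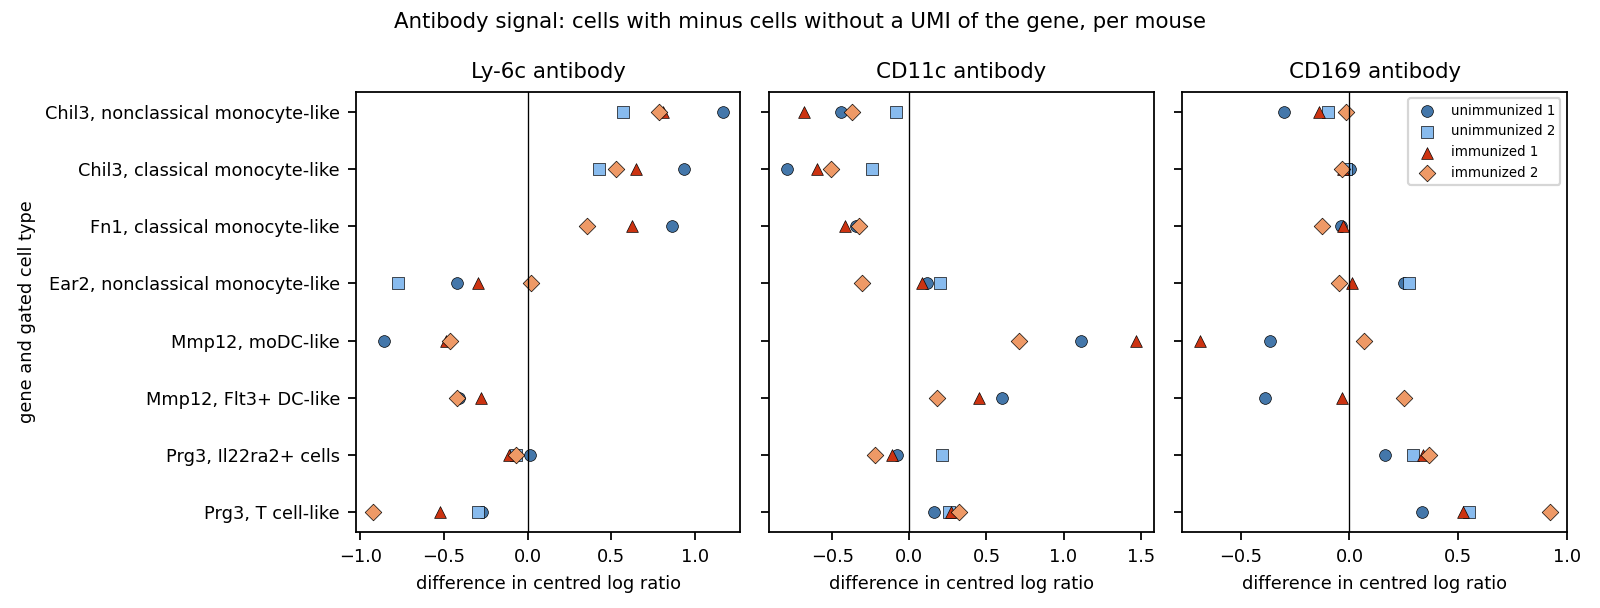
Difference in antibody signal (x axis, centred log ratio) between cells with and without a UMI of the gene, for Ly-6C, CD11c and CD169 (panels), with a marker per mouse in 8 pairs of gene and gated type (rows). For Chil3 the Ly-6C markers all lie above 0 and the CD11c markers all below 0, and for Mmp12 in moDC-like cells this is the other way round.

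Prg3 stood highest in the Il22ra2+ cells. It was at 554 and 755 CPM in the unimmunized mice and at 408 and 365 CPM in the immunized mice, in 78.5%, 70.0%, 66.3% and 64.6% of cells. Thinned to 1000 UMIs the shares were 44.9%, 53.8%, 33.5% and 30.6%. Medullary sinus macrophage-like cells came next, at 206 and 244 against 163 and 146 CPM, and did not overlap with the Il22ra2+ cells above or with the neutrophil-like cells below (48.7 CPM in unimmunized 1 and 120 CPM in immunized 1). Monocyte-like gates were low, with 20.2 and 10.98 against 5.38 and 2.41 CPM in nonclassical and 13.7 and 6.26 against 3.96 and 1.64 CPM in classical monocyte-like cells. Both immunized mice were below both unimmunized mice in 6 of 11 types and above in none. The 6 types were T cell-like, medullary sinus macrophage-like, Il22ra2+, type 1 dendritic cell-like, nonclassical and classical, in which 33.5%, 18.5%, 37.4%, 17.5%, 21% and 22.2% of all tested genes did the same.

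Prg3 RNA came without the RNA of eosinophils. Epx, which encodes eosinophil peroxidase, had no UMI in any cell, and the 6 eosinophil genes Siglecf, Epx, Prg2, Ccr3, Il5ra and Alox15 had 93 UMIs together (51, 6, 21 and 15 in the 4 mice). Only 3 cells, all of unimmunized 1, had 3 or more of these genes. Prg2, which encodes the main major basic protein, had 11 UMIs against the 6039 of Prg3. In the Il22ra2+ cells themselves Prg2 had 4 UMIs and Siglecf and Epx had none.

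Prg3 was also found in lymphoid gates, where the genes of the Il22ra2+ cells appeared beside it. A cell that passed both a lymphoid gate and the Il22ra2+ gate was counted as lymphoid. In the T cell-like gate it stood at 94.8 and 127 against 44.7 and 24.2 CPM, in 26.8%, 25.4%, 16.8% and 10.8% of cells. Il22ra2 stood there at 77.9 and 85.8 against 29.8 and 19.3 CPM, in the same order of mice by condition. NK cell-like cells had Prg3 at 93.8 and 59.2 against 80.0 and 79.1 CPM, and B cell-like cells at 26.5 and 9.97 against 24.96 and 19.8 CPM. T cell-like cells with a Prg3 UMI had a higher CD169 antibody signal than those without in 4 of 4 mice (0.58, SD 0.25, exact sign-flip p = 0.125, the smallest possible, adjusted p = 0.355). Their median depth was higher too, for example 7104 against 5940 UMIs in unimmunized 1. The part of free RNA, cell fragments or doublets in these lymphoid counts was not tested. The log2 fold change of Prg3 was -0.43 (SE 0.43, edgeR adjusted p = 0.721) in Il22ra2+ cells, -1.98 (SE 0.92, adjusted p = 0.621) in nonclassical monocyte-like cells and -0.57 (SE 0.97, adjusted p = 0.940) in Flt3+ dendritic cell-like cells, the last of which turned to 0.87 without unimmunized 1.

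Mmp12 had its highest means over mice in the dendritic cell-like gates that carry Cd209a. In moDC-like cells of unimmunized 1 it stood at 343 CPM, with UMIs in 17 of 35 cells (48.6%, 31.4% to 66.01%). The immunized mice had 25.3 and 31.9 CPM there, in 8.20% and 22.9% of cells, and the 4 moDC-like cells of unimmunized 2 had 12 UMIs, all in 1 cell. In Flt3+ dendritic cell-like cells it stood at 56.5 and 143 CPM against 16.9 and 24.9 CPM, the 143 CPM being 26 UMIs in 3 of 16 cells. The immunized mice were both lower in level, while the shares of cells (24.6% and 18.8% against 14.6% and 20.4%) overlapped. Inflammatory macrophage-like cells of immunized 2 had 44.3 CPM in 26 of 187 cells, above the moDC-like and Flt3+ levels of that mouse. C1q-high cells had 40.7 and 0 against 5.05 and 14.0 CPM, the TBM-like gate 1.98 CPM in immunized 1 and 15.4 CPM in immunized 2, and no more than 0.985% of T cell-like cells of any mouse had a UMI. The 40.6 CPM of migratory dendritic cell-like cells in immunized 2 was 1 cell with 51 UMIs.

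Mmp12 in Flt3+ dendritic cell-like cells had the smallest unadjusted p of the 12 folds given here. Its log2 fold change was -1.98 (SE 0.74, edgeR adjusted p = 0.392), and it was not called. It was called with Leiden clusters in place of the gates (-2.40, edgeR adjusted p = 0.0027), with a fit of this type alone (-2.01) and with no filter on low counts (-1.997). The cluster set in place of the Flt3+ gate had 433 cells, and the monocyte-derived dendritic cell list was its highest. It also held 7 of the 10 Retnla-high cells. Clusters, separate fit and no filter called 69, 62 and 201 genes in this type, against 0 in the main fit. Over the 11 types measured in each mouse, both immunized mice were below both unimmunized mice in 3 (T cell-like, medullary sinus macrophage-like and Flt3+, as for 33.5%, 18.5% and 21% of tested genes) and above in 1 (type 1 dendritic cell-like, 2.40 and 0 against 15.5 and 16.1 CPM, as for 20.5% of tested genes).

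Mmp12 and Ear2 were found together in some cells of the moDC-like and Flt3+ gates. Of the Mmp12-positive moDC-like cells, 12 of 17 in unimmunized 1 had an Ear2 UMI (7.77 would be so if both were spread independently), 2 of 5 in immunized 1 (0.738) and 2 of 24 in immunized 2 (0.914). Among Flt3+ dendritic cell-like cells the counts were 8 of 16 (3.69), 2 of 3 (1.13), 13 of 29 (7.58) and 1 of 10 (1.43). Counts in these gates were thus above the independent number except in the Flt3+ cells of immunized 2. In classical monocyte-like cells the counts were 3 of 4 (0.788) and 1 of 2 (0.235) in the unimmunized mice and 0 of 14 (1.52) and 0 of 48 (2.15) in the immunized mice. Cells with Mmp12 UMIs carried more CD11c protein, by 1.10 (SD 0.38, 3 of 3 mice) in moDC-like and 0.41 (SD 0.21, 3 of 3) in Flt3+ cells. They carried less Ly-6C, by -0.60 (SD 0.22) and -0.37 (SD 0.08), again in 3 of 3. The exact sign-flip p was 0.25 for each of these 4 differences, the smallest that 3 mice allow. None of the Mmp12-positive moDC-like cells had a Chil3 UMI, against 11.1%, 10.7% and 16.0% of the Mmp12-negative ones in unimmunized 1, immunized 1 and immunized 2.

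Fn1 was spread over monocyte-like gates at low levels, and its order across gates was not resolved, since each of the 5 highest overlapped with the next. Interferon-high cells had 64.8 CPM in unimmunized 1 against 68.9 and 16.4 CPM, and moDC-like cells 89.0 CPM against 18.7 and 9.20 CPM. Nonclassical monocyte-like cells had 57.7 and 27.4 against 22.2 and 6.02 CPM, the only one of 11 types in which both immunized mice were lower (21% of tested genes did the same). In NK cell-like cells both were higher, at 1.48 and 0 against 4.64 and 7.53 CPM, as for 12.3% of tested genes. Classical monocyte-like cells had 51.5 and 1.57 against 36.9 and 15.8 CPM. In C1q-high cells the level was 77.4 and 9.43 against 9.86 and 5.64 CPM, and inflammatory macrophage-like cells of immunized 2 had 21.8 CPM in 16.6% of cells.

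The fold changes of Fn1 did not pass. The log2 fold change was -2.55 (SE 1.15, edgeR adjusted p = 0.555) in C1q-high cells and -1.58 (SE 0.88, adjusted p = 0.709) in nonclassical monocyte-like cells. The C1q-high value was -2.31 without the cells of 10 or more Retnla UMIs and -0.33 without unimmunized 1. Fn1-positive classical monocyte-like cells carried more F13a1, the coagulation factor XIII A chain of monocytes, at 593 against 49.6, 295 against 53.4 and 177 against 31.0 CPM in unimmunized 1, immunized 1 and immunized 2. They carried more Chil3 as well, at 322 against 68.9, 1595 against 387 and 89.96 against 32.4 CPM. The 3 mice with 5 or more cells on each side had the same direction for both genes. Their Ly-6C antibody signal was higher by 0.62 (SD 0.26, 3 of 3 mice) and that of CD11c lower (-0.36, SD 0.05, 3 of 3), with an exact sign-flip p of 0.25, the smallest that 3 mice allow.

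In the main fit with all 4 mice, no fold change between conditions that is given here was called. Summed counts of 59 libraries of a mouse and gate were fitted together, and conditions were compared in the 4 gates with the highest relative levels of the 7 genes that had 10 or more cells in every mouse. These were the C1q-high, nonclassical monocyte-like, Il22ra2+ and Flt3+ gates. Retnla entered this choice of gates, and its C1q-high level rested on 1 cell of unimmunized 1. Leaving Retnla aside, a UMI was present in every mouse for 12 of 24 pairs of gene and gate, and only these 12 folds, of Ear2, Mmp12, Prg3, Chil3 and Fn1, are given. This choice leaves out genes at 0 in the small unimmunized 2, such as Chil3 in Flt3+ cells (1.34 and 0 against 13.7 and 3.74 CPM), so the directions of the 12 are not counted as a result. None passed an adjusted p of 0.05, and 4 had an unadjusted p under 0.05. Of the 11332 genes tested 0%, 0.00882%, 0.0618% and 0% were called in these gates (in the Il22ra2+ cells 0.0265% lower and 0.0353% higher in the immunized mice), so that a call was rare for any gene, while 967, 874, 1485 and 996 genes had an unadjusted p under 0.05. DESeq2 called 0, 0, 34 and 20 genes. Chil3 had a log2 fold change of -0.01 (SE 1.04, adjusted p = 1.0) in nonclassical, 0.17 (SE 1.11, adjusted p = 0.995) in Il22ra2+ and -0.50 (SE 1.94, adjusted p = 1.0) in C1q-high cells. Without immunized 1 these were -2.71, -2.62 and -1.71, the first 2 with edgeR adjusted p of 0.00207 and 0.0455, and without immunized 2 they were 0.88, 0.94 and 0.35, so the direction of Chil3 followed which immunized mouse was kept. In CPM both immunized mice were above both unimmunized mice for Chil3 in 2 of 11 types, the migratory and Flt3+ dendritic cell-like gates, as were 25% and 17.6% of tested genes there, and below in none. No gene's fold change was called different between any 2 of the 4 gates by an interaction term in the same fit.

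**Figure D5:**
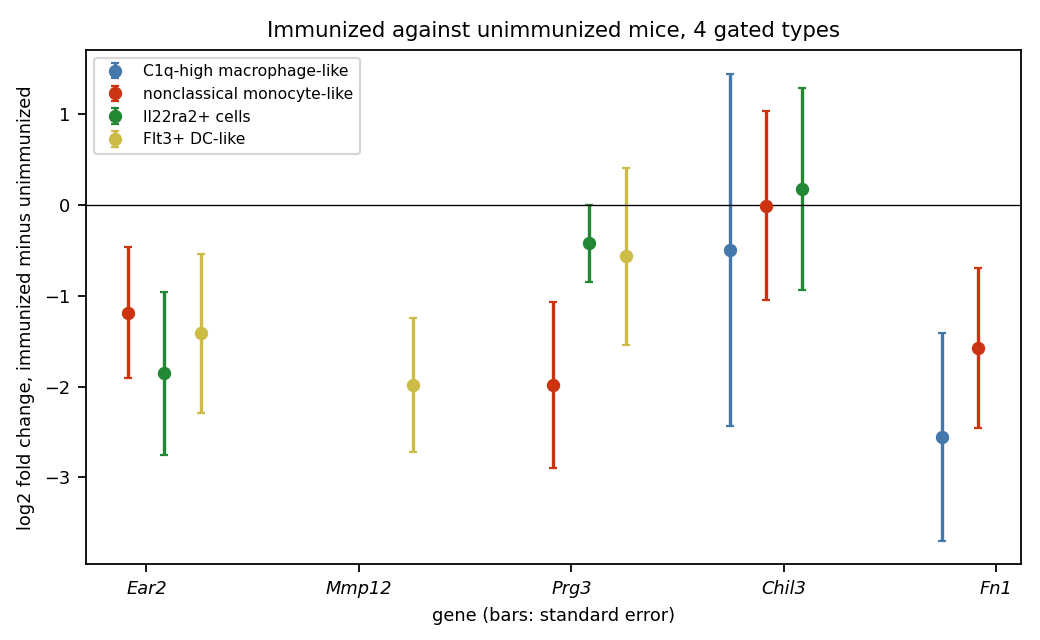
Log2 fold change of immunized over unimmunized mice (y axis) with its standard error (bars), by gene (x axis) and gated type (colour). Shown are the 12 pairs of gene and gated type with a UMI in every mouse, from the edgeR fit, with 2 mice per condition. The points lie between -2.55 and 0.17, and none passed an adjusted p of 0.05.

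No other gene of the pathway was called either. Of 30 further genes of alternative activation, such as the receptor chain Il4ra, the factors Stat6 and Irf4 and the chemokines Ccl17 and Ccl24, 25 were tested, and none passed in either direction in any of the 4 gates. Their median log2 fold changes were 0.55, -0.02, -0.05 and 0.03 in C1q-high, nonclassical, Il22ra2+ and Flt3+ cells, beside 0.11, 0.03, 0.00456 and 0.03 over all genes tested. Of 30 further secreted proteins and proteases, 24 were tested and none passed, with medians of 0.68, 0.52, 0.56 and 0.70. The largest fold with UMIs in each mouse was that of Saa3, the acute-phase serum amyloid A made by macrophages. It stood at 44.8 and 18.9 against 467 and 484 CPM in C1q-high cells (log2 fold change 3.96, SE 1.201, edgeR adjusted p = 0.301) and at 76.6 and 62.7 against 190 and 420.0 CPM in Il22ra2+ cells (2.40, SE 0.91, adjusted p = 0.238). In both gates the immunized mice were higher without overlap, as were 25.4% and 9.83% of all tested genes. Ccl17, an IL-4-induced chemokine, stood at 21.9 and 0 against 1.49 and 2.61 CPM in Il22ra2+ cells (-2.83, SE 1.02, adjusted p = 0.220).

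The remaining large folds of these lists, other than that of Slc7a2 in Il22ra2+ cells, rested on a condition with no UMI. In C1q-high cells the unimmunized mice had none of Cish, the STAT-induced inhibitor, of Slc7a2, the arginine transporter, of Ccl17, of Thbs1 or of Vcan. The immunized mice had 2.02 and 6.44 CPM of Cish, 1.52 and 4.35 of Slc7a2, 0 and 4.24 of Ccl17, 6.57 and 28.3 of Thbs1 and 5.05 and 6.23 of Vcan. In Flt3+ cells the same was so for Ccl22 (6.27 and 21.2 CPM), Arg2 (1.18 and 9.97), Ccl24 (0 and 6.23), Vcan, Ecm1 and Mmp8, the last 3 at 0.784 to 2.49 CPM. The unimmunized mice had 38 and 20 C1q-high and 65 and 16 Flt3+ cells, against 372 and 1284 and against 199 and 49 in the immunized mice. In nonclassical cells the named genes Ptgs1, Slc7a2, Ccl17, Mmp25, Retnlg and Gas6 had 1 to 8 UMIs, all in the immunized mice. In Il22ra2+ cells Ccl24 had 14 and Gas6 3 UMIs, all in unimmunized 1, and Retnlg had 5, all in the immunized mice. Slc7a2 had 4 UMIs in unimmunized 1 and 1 in immunized 2.

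Across the 59 libraries each gene had its own nearest companions, given here as a description since libraries share mice and depth. Retnla was most like Fcrls (Pearson r of log2(CPM + 1) 0.759), Hr (0.582) and Aqp9 (0.532). Its level in a library is largely set by the 10 Retnla-high cells, which held 1217 of its 1260 UMIs. The same cells held 98 Fcrls UMIs (703 against 1.84 CPM over all cells), so this likeness is no separate link between the 2 genes. Ear2 was most like Grk3 (0.710), Nav1 (0.686) and Pde4dip (0.673), Mmp12 like Dpep2 (0.670), Kcne3 (0.658) and Gm4258 (0.651), and Chil3 like Hp, the haptoglobin gene (0.708), Msrb1 (0.656) and Ptpn1 (0.654). Prg3 was most like 1300017J02Rik (0.917) and Il22ra2 (0.903), which defined the gate where it is highest, and Slc9a3r2 (0.892). Fn1 was most like F13a1 (0.713), a marker of the classical gate, Plxna4os1 (0.643) and Atf3 (0.632), and Arg1 like Asb11 (0.623), P4ha2 (0.620) and Ak4 (0.618). Among the 7 genes themselves the highest values were 0.506 for Chil3 with Fn1 and 0.443 for Retnla with Fn1, and the lowest was -0.337 for Mmp12 with Chil3. The 3 classical markers of alternative activation were thus highest in different places. Most Retnla UMIs lay in 10 cells, and the cells with 3 or more Arg1 UMIs were of immunized 2. Chil3 was highest in the neutrophil-like, monocyte-like and interferon-high gates. With so few cells, the lack of Chil3 and Arg1 in the 10 cells does not show that these genes exclude each other.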

How the data were processed

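CITE-seq libraries (3' RNA, surface antibodies, hashtags) were made from 2 captures of pooled CD11b hi Tomato+ cells of 4 hashtagged mice. Per the labels and the study's methods, the authors deposited raw counts, of UMIs made with Cell Ranger 4.0.0 on mm10 and of antibodies and hashtags made with CITE-seq-count (version not given in the sources used here).

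A cell was kept when 1 hashtag held 80% or more of at least 10 hashtag counts and mitochondrial UMIs made up no more than 25%. Of 18662 barcodes, 1242 occurred in both captures and were left out, 16182 had hashtag and antibody counts, and 12139 were kept. Cells in which no hashtag held 80% of the counts were thereby dropped, so that some doublets across mice could remain. Doublets within a mouse were not dropped, except in an alternative that left out the top 10% of a Scrublet score (scanpy 1.11.5). Gates needed 3 markers (4 of lists of 7 or more, 2 for medullary sinus macrophages, 5 for interferon-high cells), and 10 C1q UMIs per 10000 for C1q-high cells. A cell took the first gate that it passed. The order was B, T, NK, neutrophil, medullary sinus macrophage, Il22ra2+, type 1, migratory, nonclassical, Flt3+, moDC, inflammatory, TBM, interferon-high, C1q-high and classical. The Il22ra2+ gate genes were chosen after clusters were seen.

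UMIs were summed per mouse and gate, and 59 libraries with 10 or more cells entered 1 quasi-likelihood fit of edgeR 4.0.16 (R 4.3.3, TMM, filterByExpr, 11332 genes, Benjamini-Hochberg), after a test on simulated data. Total UMIs per mouse were 18943001, 3817845, 39020653 and 61983132. Shares and antibody differences were compared by two-sided exact permutation and sign-flip tests over mice. Alternatives were HTODemux (quantile 0.99, Seurat 5.3.0), stricter hashtag, mitochondrial and doublet limits, Leiden clusters, each capture alone, DESeq2 1.42.0, limma 3.58.1 and left-out mice.

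The 7 genes and both lists of 30 further genes were chosen with earlier results of these data known. Named genes were the 7, genes of these lists past the threshold or otherwise the 3 with the largest absolute log2 fold change per list and gate, and the 3 genes with the most similar levels over libraries.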

Additional observations from a re-analysis of the deposited data

How the results depend on the processing

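No paired analysis was possible because each mouse had 1 condition and the mouse numbers only name animals. Of the recomputed folds of the 7 genes 172 kept direction and side of the threshold, and 14 kept direction but passed only under the alternative. A further 17 changed sign and were counted as such whether or not they passed. With no filter on low counts, Fn1 in C1q-high (-2.49), Ear2 (-1.16), Prg3 (-1.98) and Fn1 (-1.57) in nonclassical, Ear2 in Il22ra2+ (-1.85) and Flt3+ (-1.43) and Mmp12 in Flt3+ cells (-1.997) passed, all log2. Ear2 in Il22ra2+ cells also passed in a separate fit per type (-1.93). Sign changes were those of Chil3 in C1q-high cells with HTODemux (0.17), Leiden clusters (7.99, SE 12.5) and without immunized replicate 2 (0.35). Chil3 in nonclassical cells changed sign with HTODemux (1.27), the stricter hashtag rule (0.59), Leiden clusters (0.69), capture 1 only (0.99), no filter (0.0345) and without unimmunized replicate 2 (0.59) or immunized replicate 2 (0.88). In Il22ra2+ cells Chil3 did so with capture 1 only (-0.59), limma-voom (-0.46), and without unimmunized replicate 2 (-0.17) or immunized replicate 1 (-2.62). Fn1 in C1q-high cells did so with Leiden clusters (5.98, SE 9.35) and capture 1 only (6.37, SE 11.8), and Prg3 in Flt3+ cells without unimmunized replicate 1 (0.87). Over left-out mice Chil3 ranged from -1.71 to 0.35 in C1q-high, from -2.71 to 0.88 in nonclassical and from -2.62 to 1.09 in Il22ra2+ cells, and Prg3 in Flt3+ cells from -0.83 to 0.87. For these the cause was not tested.

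Counts of genes called in the C1q-high, nonclassical, Il22ra2+ and Flt3+ gates (0, 1, 7 and 0 of 11332) moved with almost every setting. They were 0, 0, 1 and 0 with HTODemux, 3, 2, 23 and 6 with 95% hashtag share and 50 counts, 0, 1, 5 and 1 with a mitochondrial limit of 10%, 0, 0, 13 and 69 with Leiden clusters, and 0, 1, 22 and 0 without the Scrublet top 10%. With Leiden clusters the place of the Flt3+ gate was taken by the cluster in which the monocyte-derived dendritic cell list was highest. Capture 1 alone gave 1, 3, 0 and 2, and capture 2 alone 2, 0, 34 and 0. DESeq2 size factors in edgeR gave 1, 1, 13 and 0, DESeq2 0, 0, 34 and 20, no filter 209, 150, 235 and 201 (20386 genes tested), separate fits 1, 1, 86 and 62, and limma-voom 779, 0, 167 and 4. Leaving out each mouse in turn gave 1 to 180, 0 to 172, 0 to 109 and 0 to 166. Of the recomputed levels and shares 62 moved by less than 1 SD over mice. Those that moved more were the shares at 1000 UMIs per cell of Ear2 (32.4%), Prg3 (40.7%), Chil3 (17.8%) and Fn1 (3.95%) in the gates where they were highest, the shares at 3 or more UMIs of Ear2 (46.1%) and Prg3 (42.8%), and Prg3 as a mean of per-cell CPM (713). On a log2 scale in place of the centred log ratio 4 of the 27 antibody differences for Ly-6C, CD11c and CD169 changed sign, and 13 of all 54 did. The 4 were those of CD11c for Ear2 in nonclassical (-0.0226), CD169 for Mmp12 in Flt3+ (0.0756) and CD11c (0.17) and Ly-6C (0.16) for Prg3 in Il22ra2+ cells. Leaving out the 10 Retnla-high cells, an alternative chosen after seeing the data, changed none of the 12 folds in direction or call and took the mean C1q-high Retnla level from 358.5 to 0.267 CPM.

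Precision was limited by 2 mice per condition and by the 537 cells of unimmunized 2, and the standard errors of the 12 folds ran from 0.43 to 1.94 on the log2 scale.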
